A study of Mus musculus with 2 samples.

Results

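The genes described here are 10 parts of the circadian clock, the transcriptional loop that runs with a daily period in most mammalian cells: Npas2, Clock, Arntl, Per1, Per2, Per3, Cry1, Cry2, Nr1d2 and Dbp. They were taken by symbol, 10 of the 30431 genes in the deposited matrices, after earlier results of these data were known, so their values are a description and carry no test. Nuclei came from hand-dissected dorsal CA1, the output field of the hippocampus, and were sorted and run as droplet 3′ RNA libraries. Both groups were male Calb1::Cre x Tdtomato mice of strain C57BL/6J, in which a Cre recombinase driven from Calb1, a gene of superficial CA1 pyramidal cells, switches on a red fluorescent protein. At 6 to 7 weeks of age the epilepsy mice received kainate, a glutamate receptor agonist, in hourly doses of 5 mg/kg until status epilepticus, and then diazepam at 4 mg/kg. The control mice received vehicle, saline or DMSO, and otherwise similar handling. All were killed 12 weeks later, when the treated mice were in the chronic epileptic phase. The labels name 2 mice per condition but only 1 library per condition, so no spread between animals can be had and no p-value is given.

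ARNTL pairs with CLOCK or with NPAS2, a relative of CLOCK that is prominent in the forebrain, and the pair activates genes with an E-box in their promoters. Among these are the Per and Cry genes, whose proteins return to the nucleus and silence the pair, and Nr1d1 and Nr1d2, which encode REV-ERB receptors that repress Arntl at elements where ROR receptors activate it. DBP is a PAR bZIP activator that carries the rhythm to output genes through D-boxes. Levels of most of these transcripts move through the day. The sources used here do not give the hour at which the mice were killed, so hour, library and condition cannot be told apart in any ratio below.

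The promoter elements of this loop were looked for in RefSeq promoter windows of 300 bases (250 before to 50 after a start, build GRCm38.p6), on both strands. Of the 10 genes, 9 had a window, with 13 windows in all, and Per2 had none. The E-box CACGTG was in 7.15% of all 32851 windows and in those of Per1 and Cry1. The ROR and REV-ERB element TAGGTCA was in 2.61% of windows and in that of Arntl. The D-box TTATGTAA was in 0.938% of windows and occurred 2 times in that of Per3, and the variant TTACGTAA was in 0.119% and in no window of these genes. No window of these genes held the cyclic AMP response element TGACGTCA, found in 1.79% of windows. The matches are shown so that the loop can be read at the level of sequence. They are letters in a window, not measured binding, and an absent match says only that these letters are not there. Starts are those of the windows and not always the first base of the gene spans given below. The Per1 match lies inside the span of its gene. Capitals mark the element, and each line runs 5′ to 3′ on the gene's own strand: Arntl at chr7:113207530-113207559 on the plus strand, 30 bases after the start, Per1 at chr11:69098758-69098813 on the plus strand, Cry1 at chr10:85185084-85185139 on the minus strand, and Per3 at chr4:151044838-151044895 and chr4:151044791-151044848 on the minus strand.
Arntl, ROR and REV-ERB element: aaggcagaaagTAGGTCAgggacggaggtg
Per1, E-box: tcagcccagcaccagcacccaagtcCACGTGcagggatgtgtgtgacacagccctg
Cry1, E-box: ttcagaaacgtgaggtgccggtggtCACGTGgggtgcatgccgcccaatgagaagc
Per3, D-box, upstream copy: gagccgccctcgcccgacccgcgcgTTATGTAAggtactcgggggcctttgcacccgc
Per3, D-box, downstream copy: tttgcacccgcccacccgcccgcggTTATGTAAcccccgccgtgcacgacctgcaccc

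The control library held 3661 nuclei and 11858162 UMIs (unique molecular identifiers, counted molecules), and the epilepsy library 3078 nuclei and 7112131 UMIs, with medians of 3447 and 2443 UMIs per nucleus. Once likely doublets were taken out, the CA1 pyramidal-like class held 2837 nuclei in control and 2341 in epilepsy, of which 732 and 519 were deep-like and 1004 and 926 superficial-like. The summed deep markers of superficial-like nuclei stood at 58.9% of the deep-like level in the control library and at 52.5% in the epilepsy library. The summed superficial markers barely separated the sublayers, at 92.9% and 89.5% of the superficial-like level in deep-like nuclei, so the superficial-like name rests mainly on Calb1 and low Ndst4. Interneuron-like nuclei numbered 198 and 143, and oligodendrocyte-like nuclei 225 and 313. None of the 10 genes was among the variable genes used to build the clusters. The libraries shared 16 cell barcodes.

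In CA1 pyramidal-like nuclei, Nr1d2 was the gene among the 10 with the largest difference between the libraries, 2.26-fold higher in epilepsy, while Cry2 was lower and Arntl and Per2 were modestly higher. Npas2 was level over all pyramidal nuclei but went opposite ways in the sublayers, higher in deep-like and lower in superficial-like nuclei of the epilepsy library. Clock, Per1 and Cry1 differed little or not beyond counting error, Dbp was sparse, and no UMI of Per3 was counted. Levels are given in CPM, the UMIs of a gene scaled to the total UMIs of its class in that library. Ratios are log2 of epilepsy over control with exact 95% intervals, which cover counting error only and not the spread between mice. A ratio was called when it was at least 1.5-fold over 50 or more UMIs in both libraries together. By that rule 2 of 9 measured clock genes were called in pyramidal-like nuclei, Nr1d2 and Dbp, both higher. The same rule called 8.73% of 11083 genes higher and 5.15% lower. The intervals of 4 members lay above 0, that of 1 below, and those of 4 held 0, with a median ratio of 0.12 against 0.00 for all genes. No share of all genes by interval is set beside this count, so it is not read as a result about the members.

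**Figure D1:**
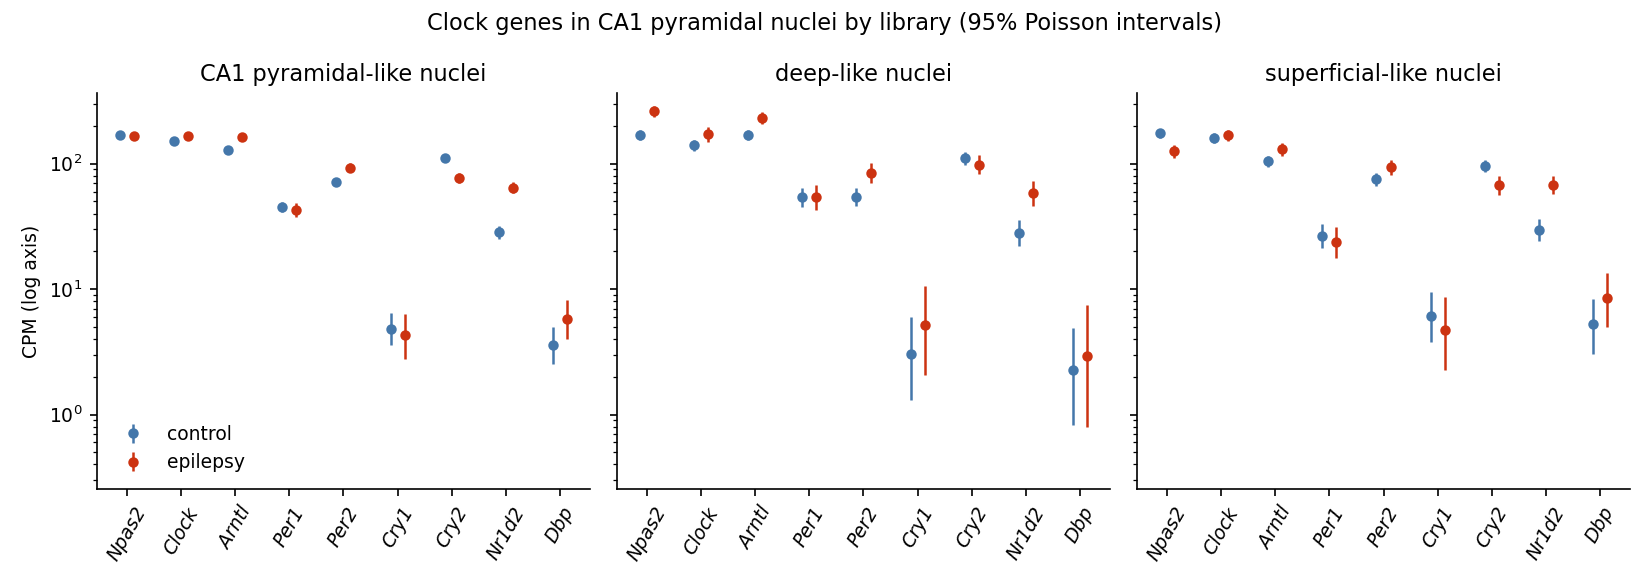
Level of 9 clock genes (CPM on a log axis) in the control library (blue) and the epilepsy library (red) for all CA1 pyramidal-like, deep-like and superficial-like nuclei; points are the level of a library and bars its 95% Poisson interval. Per3, with no UMI, cannot be drawn. Nr1d2 is higher in epilepsy in all 3 panels, and Npas2 is higher in the deep-like and lower in the superficial-like panel.

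Among the activators, Clock was at 153 CPM (145 to 161) in control and 166 CPM (156 to 177) in epilepsy pyramidal-like nuclei, a log2 ratio of 0.12 (0.00 to 0.24). Clock lies on chromosome 5, minus strand, 76209868 to 76304792 (GRCm38). Its ratio was 0.29 (0.05 to 0.53) in deep-like nuclei and 0.07 (-0.13 to 0.27) in superficial-like nuclei. In interneuron-like nuclei it was 136 CPM in both libraries. In oligodendrocyte-like nuclei it was 196 CPM in control and 192 CPM in epilepsy, a ratio of -0.03 (-0.56 to 0.50). The interval lay above 0 in deep-like nuclei, bordered on 0 over all pyramidal-like nuclei and held 0 in the other classes given.

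Arntl (chromosome 7, plus strand, 113207465 to 113314126) encodes a partner of both CLOCK and NPAS2. It was at 129 CPM (122 to 136) in control and 162 CPM (152 to 173) in epilepsy pyramidal-like nuclei. The intervals did not overlap, and the log2 ratio was 0.33 (0.21 to 0.46), or 1.26-fold higher. The ratio was 0.47 (0.25 to 0.68) in deep-like nuclei and 0.33 (0.09 to 0.56) in superficial-like nuclei. In interneuron-like nuclei it was 0.40 (-0.35 to 1.14), from 41 and 27 UMIs, and in oligodendrocyte-like nuclei 0.72 (-0.09 to 1.55), from 23 and 34 UMIs. Arntl was thus higher in epilepsy by point value in each of these 5 classes. The interval lay above 0 in all CA1 pyramidal-like nuclei and in their deep-like and superficial-like parts. In CA2/CA3 pyramidal-like nuclei Arntl was lower by point value, 131 CPM in control and 65.4 CPM in epilepsy. Those 19 and 13 UMIs were below the minimum for a call, and the ratio interval (-2.14 to 0.09) held 0. Across the 7 CA1 pyramidal subclusters, Arntl was higher by point value in 7, with the interval above 0 in 3 and holding 0 in 4. Arntl2, a paralog of Arntl, went the other way in pyramidal-like nuclei, from 36.2 to 29.1 CPM, with a ratio of -0.31 (-0.59 to -0.05).

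Npas2 (chromosome 1, plus strand, 39193731 to 39363236) showed the same total and a different distribution. Over all pyramidal-like nuclei it was 168 CPM (160 to 177) in control and 167 CPM (157 to 178) in epilepsy, a ratio of -0.01 (-0.13 to 0.10). In deep-like nuclei it was 170 CPM (155 to 186) in control and 261 CPM (235 to 290) in epilepsy, with 451 and 356 UMIs. In superficial-like nuclei it was 175 CPM (161 to 190) in control and 126 CPM (111 to 142) in epilepsy, with 568 and 268 UMIs. The sublayers were level in the control library and apart in the epilepsy library, where deep-like nuclei held the higher value. The log2 ratio of epilepsy to control was 0.62 (0.41 to 0.82) in deep-like nuclei and -0.47 (-0.69 to -0.26) in superficial-like nuclei. The ratio of superficial to deep was 0.04 (-0.14 to 0.22) within the control library and -1.05 (-1.29 to -0.82) within the epilepsy library. Dividing the pyramidal class by the median of a sublayer marker score, in place of clusters, kept both directions at smaller size. The ratio was 0.20 on the deep side, below the interval of 0.41 to 0.82 of deep-like nuclei and short of 1.5-fold. On the superficial side it was -0.27. The summed deep markers of deep-like nuclei also differed between the libraries, 5812 CPM in control and 4962 CPM in epilepsy, and their part in the Npas2 ratio was not tested.

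The share of nuclei with an Npas2 UMI ran in the same directions at equal depth. With each nucleus thinned to 1000 UMIs, 14.4% (11.9 to 17.2) of 721 deep-like control nuclei and 23.8% (20.1 to 27.7) of 509 deep-like epilepsy nuclei held one, after 11 and 10 shallower nuclei were left out. Among superficial-like nuclei the thinned shares were 15.2% (13.0 to 17.6) of 966 and 12.1% (9.99 to 14.5) of 833, with 38 and 93 left out. These are exact binomial intervals, and those of the superficial-like shares overlap. Without thinning, the shares were 41.5% and 46.6% in deep-like and 39.7% and 24.0% in superficial-like nuclei. No class is known to lack clock transcripts, so no background share from free RNA could be set beside them.

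Across the 7 subclusters of pyramidal nuclei, Npas2 was higher in epilepsy with an interval above 0 in 2 and lower with an interval below 0 in 4. Besides the deep-like subcluster 0, the point value was higher in subclusters 5 and 6. Subcluster 5, led by activity-induced genes such as Tiparp, Nr4a3, Btg2 and Fos, held 164 CPM in control and 212 CPM in epilepsy, a ratio of 0.37 (0.06 to 0.68). Subcluster 6, with 13 and 10 UMIs, had an interval that held 0. The superficial-like subclusters 1 and 2 gave -0.46 (-0.72 to -0.21) and -0.54 (-0.93 to -0.15), and the unassigned subclusters 3 and 4 gave -0.53 (-0.86 to -0.20) and -0.44 (-0.88 to -0.01). Lower Npas2 in epilepsy was therefore not confined to the superficial-like name. Subcluster 2 had a median of 1678 UMIs per nucleus, and without it the superficial-like group is subcluster 1 alone, at the -0.46 given above.

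**Figure D2:**
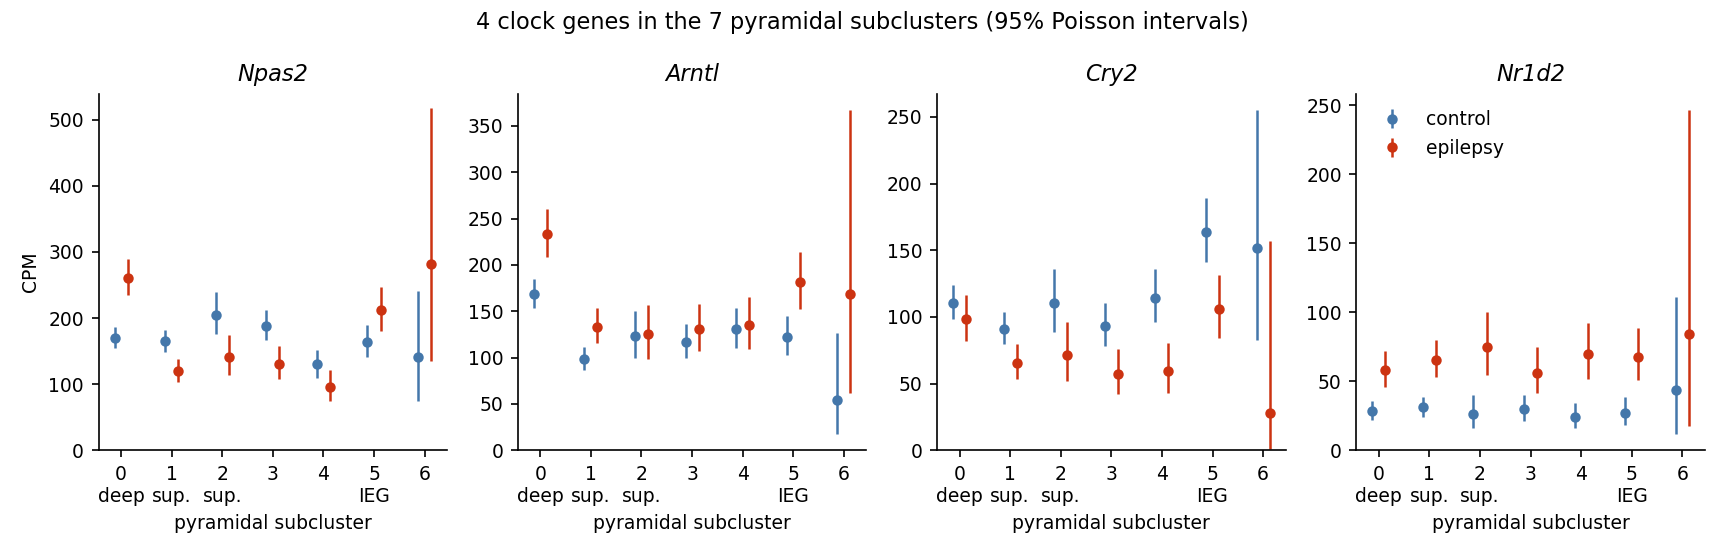
Level (CPM, linear axis from 0) of Npas2, Arntl, Cry2 and Nr1d2 in each of 7 pyramidal subclusters in the control (blue) and epilepsy (red) library; points are the level of a library and bars its 95% Poisson interval, sup. marks superficial-like subclusters and IEG the subcluster led by immediate early genes. Nr1d2 is higher and Cry2 lower in epilepsy in all 7 by point value, while Npas2 is higher in 3 and lower in 4.

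Outside the pyramidal layer, Npas2 was at 63.3 CPM (45.7 to 85.6) in control and 115 CPM (81.4 to 158) in epilepsy interneuron-like nuclei, from 42 and 38 UMIs. The ratio was 0.86 (0.19 to 1.53). In this class 1 of 4 measured clock genes was called higher, Npas2, and 1 lower, Cry2, where the rule called 5.48% of 3393 genes higher and 7.13% lower. The 13 pyramidal markers stood at 23.2% and 22.5% of their pyramidal level in interneuron-like nuclei, and their part in the Npas2 value was not tested. In CA2/CA3 pyramidal-like nuclei, Npas2 gave 20 and 12 UMIs, below the minimum for a call, and a ratio of -1.19 (-2.36 to -0.09). Astrocyte-like nuclei had the highest point level of Npas2 in both libraries, 325 CPM (162 to 581) and 538 CPM (294 to 903), from 11 and 14 UMIs. In the control library the astrocyte-like interval overlapped those of the pyramidal groups, and in the epilepsy library it overlapped none of the other classes. Deep-like nuclei came next in the epilepsy library, with an interval above those of superficial-like and other pyramidal nuclei.

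The repressor arm was mixed. Per1 (chromosome 11, plus strand, 69095217 to 69109960), which light, hormones and neuronal activity can induce as well as the clock, was at 45.4 CPM (41.2 to 49.8) in control and 42.7 CPM (37.5 to 48.3) in epilepsy pyramidal-like nuclei. The ratio was -0.09 (-0.32 to 0.14). It was 0.01 (-0.42 to 0.42) in deep-like nuclei and -0.16 (-0.69 to 0.36) in superficial-like nuclei, and the interval held 0 in all 6 pyramidal subclusters with a Per1 UMI. The sublayers themselves differed in both libraries, with Per1 lower in superficial-like than in deep-like nuclei by log2 ratios of -1.01 in control and -1.18 in epilepsy.

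Per2 (chromosome 1, minus strand, 91415982 to 91459324), the close partner of Per1, differed from it. It was at 71.8 CPM (66.6 to 77.3) in control and 93.1 CPM (85.4 to 101) in epilepsy pyramidal-like nuclei, a ratio of 0.37 (0.21 to 0.54). In deep-like nuclei it was 54.3 CPM (45.8 to 63.9) and 85.0 CPM (70.3 to 102), and the ratio of 0.65 (0.28 to 1.01) passed 1.5-fold. In superficial-like nuclei it was 75.0 CPM (65.9 to 85.1) and 93.9 CPM (81.4 to 108), a ratio of 0.32 (0.05 to 0.60). Thinned as for Npas2, the superficial-like shares of nuclei with a Per2 UMI were level. They were 8.59% (6.90 to 10.5) in control and 8.52% (6.72 to 10.6) in epilepsy. The deep-like shares were 4.72% (3.29 to 6.53) and 8.45% (6.18 to 11.2). Over all pyramidal-like nuclei they were 7.64% (6.68 to 8.70) and 9.05% (7.88 to 10.3). The share intervals overlap in all of these groups. By subcluster, the Per2 ratio interval lay above 0 in 2 of 6 and held 0 in 4. Per2 was higher in superficial-like than in deep-like nuclei within the control library, by 0.47 on the log2 scale, and within the epilepsy library that ratio was 0.14. In CA2/CA3 pyramidal-like nuclei, 2 control and 17 epilepsy UMIs, below the minimum for a call, gave a Per2 ratio of 2.63 (0.56 to 5.79).

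Per3 (chromosome 4, minus strand, 151003652 to 151044665) was listed at 0 in every nucleus of both libraries. A count of 0 allows up to 3 UMIs, or 0.309 CPM in control and 0.514 CPM in epilepsy pyramidal-like nuclei. The gene lies inside Camta1 on the same strand, and Camta1 had 4304 and 3305 UMIs in these nuclei. Whether molecules of Per3 were lost in the counting of overlapping genes was not tested, and the 0 is not read as absence of the transcript.

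Cry1 (chromosome 10, minus strand, 85131700 to 85185064) gave 47 UMIs in control and 25 in epilepsy pyramidal-like nuclei, 4.84 and 4.28 CPM, with a ratio of -0.17 (-0.94 to 0.56). At this depth the interval still held a level 1.5-fold lower in epilepsy. Cry2 (chromosome 2, minus strand, 92403646 to 92434043) was deep enough to read. It was at 110 CPM (104 to 117) in control and 77.1 CPM (70.2 to 84.6) in epilepsy pyramidal-like nuclei, and the ratio was -0.52 (-0.68 to -0.36), short of the 1.5-fold rule. Cry2 was the sole member with an interval below 0 there.

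By sublayer, Cry2 was 111 CPM (98.5 to 124) in control and 98.2 CPM (82.3 to 116) in epilepsy deep-like nuclei, a ratio of -0.17 (-0.48 to 0.13). In superficial-like nuclei it was 96.0 CPM (85.6 to 107) and 67.2 CPM (56.6 to 79.1), a ratio of -0.51 (-0.81 to -0.23). The deep-like level intervals overlap and the superficial-like ones do not. The ratio intervals of the sublayers overlap each other, and the difference between the sublayers was not tested. Cry2 was lower in epilepsy by point value in 7 of 7 pyramidal subclusters and by interval in 5. Thinned to 1000 UMIs per nucleus, 10.8% (9.64 to 12.0) of 2747 control and 7.46% (6.40 to 8.64) of 2211 epilepsy pyramidal-like nuclei held a Cry2 UMI. Without thinning the shares were 29.5% and 16.9%. The thinned shares were 10.5% (8.40 to 13.0) and 8.84% (6.52 to 11.7) in deep-like nuclei. In superficial-like nuclei they were 10.2% (8.41 to 12.3) and 6.84% (5.22 to 8.77). The intervals overlap in both sublayers. In subcluster 5 Cry2 was at 164 CPM in control and 106 CPM in epilepsy, a ratio of -0.63 (-1.02 to -0.25).

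Cry2 was lower outside the pyramidal layer as well. In interneuron-like nuclei it was 83.0 CPM (62.5 to 108) in control and 39.3 CPM (21.0 to 67.3) in epilepsy, from 55 and 13 UMIs, a ratio of -1.08 (-2.07 to -0.18). In oligodendrocyte-like nuclei it was 123 CPM (88.6 to 166) and 52.1 CPM (29.8 to 84.6), from 42 and 16 UMIs, a ratio of -1.24 (-2.17 to -0.38). Oligodendrocyte-like nuclei were shallow, with medians of 844 and 612 UMIs, and the pyramidal markers stood in them at 59.4% and 51.7% of their pyramidal level. How much of any clock gene's count there came from free pyramidal RNA was not tested. In that class 1 of 4 measured members was called higher (Arntl) and 2 lower (Cry2 and Npas2), where the rule called 5.79% of 2400 genes higher and 6.46% lower. The intervals of Arntl and Npas2 held 0. The Npas2 ratio of -0.60 (-1.50 to 0.27) turned to 0.07 over the nuclei with at least 500 detected genes. Microglia-like nuclei gave 9 and 13 UMIs of Arntl, below the minimum for a call, and a ratio of 1.36 (0.02 to 2.77). The pyramidal markers stood there at 84.4% and 64.8% of their pyramidal level. Intervals held 0 in microglia-like nuclei for Npas2 at -0.31, Clock at -0.02, Per1 at -0.49, Per2 at -0.17 and Cry2 at -1.34. Those of Nr1d2, Cry1 and Dbp, which had no control UMI there, also held 0.

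**Figure D3:**
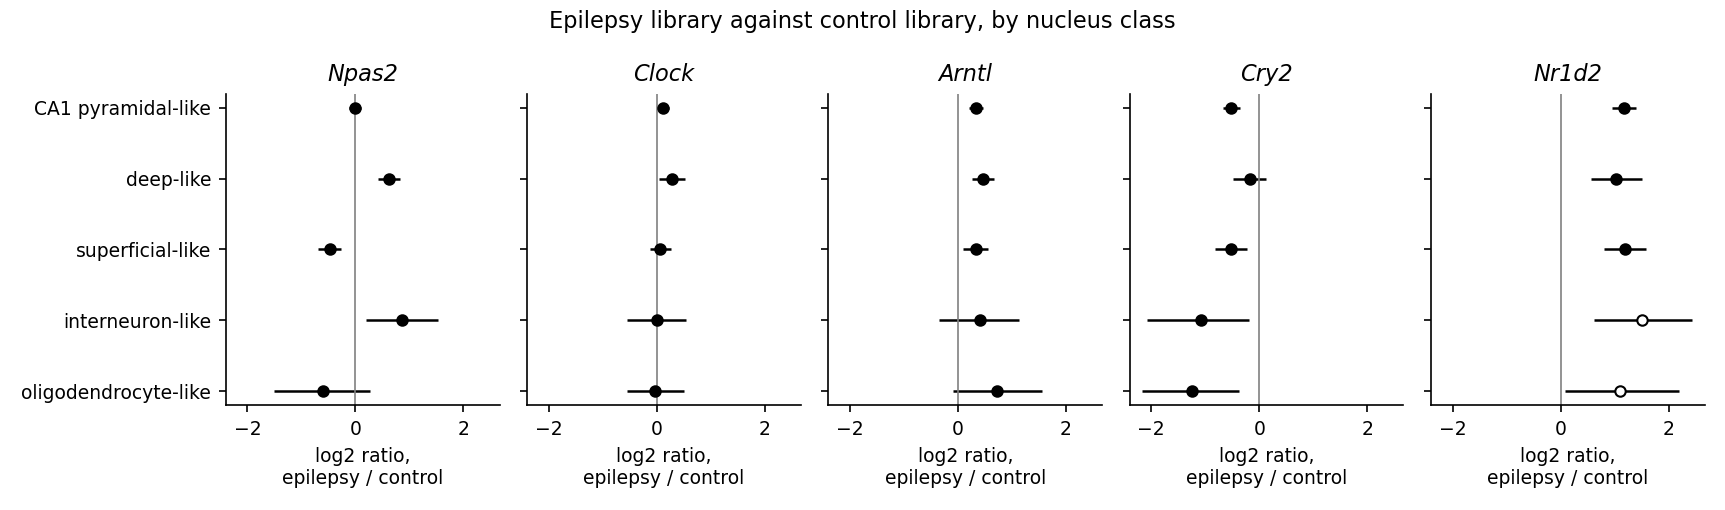
Log2 ratio of epilepsy to control (horizontal axis) for Npas2, Clock, Arntl, Cry2 and Nr1d2 in 5 groups of nuclei; points are the ratio of the libraries, bars the exact 95% interval for counting error, and open points have under 50 UMIs in both libraries together. Nr1d2 lies right of 0 and Cry2 left of 0 in all 5 groups, Clock stays near 0, and Npas2 falls on both sides.

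Nr1d2 (chromosome 14, minus strand, 18204054 to 18239127) encodes REV-ERB beta, the nuclear receptor that represses Arntl. In pyramidal-like nuclei it was at 28.5 CPM (25.2 to 32.1) in control and 64.3 CPM (57.9 to 71.1) in epilepsy, from 277 and 375 UMIs. The epilepsy library had more Nr1d2 molecules than the control library although it held fewer UMIs in all. The log2 ratio was 1.17 (0.95 to 1.40), or 2.26-fold higher (1.93 to 2.64). Arntl was higher in the same nuclei, as given above.

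The sublayers did not stand apart in Nr1d2. Deep-like nuclei went from 28.3 CPM (22.2 to 35.4) to 57.9 CPM (45.9 to 72.2), a ratio of 1.03 (0.56 to 1.51). Superficial-like nuclei went from 29.8 CPM (24.2 to 36.4) to 68.1 CPM (57.5 to 80.1), a ratio of 1.19 (0.81 to 1.58). The ratio of superficial to deep was 0.08 within the control library and 0.23 within the epilepsy library. The ratio of epilepsy to control ran from 0.92 to 1.54 over the 7 subclusters, with the interval above 0 in 6 and only the small subcluster 6, of 4 and 3 UMIs, holding 0.

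Nr1d2 was also higher in epilepsy in the other 2 classes drawn, below the 50-UMI minimum for a call. In interneuron-like nuclei it was 28.7 CPM (17.3 to 44.8) in control and 81.7 CPM (53.9 to 119) in epilepsy, from 19 and 27 UMIs, with a ratio of 1.51 (0.61 to 2.44). In oligodendrocyte-like nuclei it was 38.1 CPM (20.3 to 65.1) and 81.4 CPM (52.7 to 120), from 13 and 25 UMIs, with a ratio of 1.10 (0.08 to 2.19). Thinned to 1000 UMIs per nucleus, 2.66% (2.09 to 3.33) of 2747 control and 6.20% (5.23 to 7.28) of 2211 epilepsy pyramidal-like nuclei held an Nr1d2 UMI, with 90 and 130 shallower nuclei left out. Without thinning the shares were 9.06% and 14.7%.

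Its paralog Nr1d1, which encodes REV-ERB alpha, did not show this difference. It gave 43 UMIs in control and 21 in epilepsy pyramidal-like nuclei, 4.42 and 3.60 CPM, a ratio of -0.30 (-1.12 to 0.49). That interval ends below the lower bound of Nr1d2. Rora, the most deeply counted ROR receptor here, was at 563 and 595 CPM with a ratio of 0.08 (0.02 to 0.14). Rorb was below the 50-UMI minimum.

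Dbp (chromosome 7, plus strand, 45705088 to 45710203) gave 35 UMIs in control and 34 in epilepsy pyramidal-like nuclei, 3.60 and 5.83 CPM. Its ratio of 0.69 (-0.03 to 1.42) was called higher by point value, but its interval held 0. Dbp overlaps Sphk2 on the opposite strand, which had 43 and 31 UMIs. The sources used here do not say whether the counting used strand, and the part of that overlap in the Dbp count was not tested. Its relative Tef was lower in epilepsy, at 61.9 and 49.4 CPM with a ratio of -0.33 (-0.53 to -0.12), and Hlf had a ratio of -0.37 (-0.79 to 0.03).

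In deep-like nuclei, 3 of 7 measured members were called, Npas2, Per2 and Nr1d2, all higher, where the rule called 5.16% of 7089 genes higher and 8.72% lower. The Npas2 and Per2 calls were lost, and that of Nr1d2 kept, at a 2-fold rule and under 5 other settings: resolution 0.5, at least 500 detected genes, clock genes left out of clustering, doublets kept and the median score. Under those 5 settings Npas2 ran from 0.20 to 0.53 and Per2 from 0.46 to 0.52. In superficial-like nuclei, 1 of 7 was called, Nr1d2, again higher, where it called 7.13% of 8378 genes higher and 4.54% lower. The median ratio of the measured members was 0.47 in deep-like and 0.07 in superficial-like nuclei, against -0.04 and 0.03 for all genes. Arntl was lower in superficial-like than in deep-like nuclei within each library, with superficial to deep ratios of -0.69 in control and -0.83 in epilepsy. That order was shared by the libraries, whereas the order of Npas2 was not.

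A further list of 25 clock genes, again drawn up with earlier results known, covered paralogs, other repressors, kinases, ubiquitin ligase parts and outputs. In pyramidal-like nuclei 18 of the 25 were measured, and 0 were called higher and 3 lower: Ciart, Bhlhe41 and Usp2. Over all 11083 genes measured there, 8.73% were called higher and 5.15% lower. The intervals of 2 lay above 0, those of 8 below, and those of 8 held 0, with a median of -0.31 against 0.00 for all genes. As for the members, no share of all genes by interval is set beside this count. Ciart, which encodes the repressor CHRONO, was at 12.2 CPM in control and 4.46 CPM in epilepsy, a ratio of -1.46 (-2.13 to -0.84), from 119 and 26 UMIs. Bhlhe41, which encodes the E-box repressor DEC2, was at 15.4 and 8.91 CPM, a ratio of -0.79 (-1.28 to -0.33). Usp2, a rhythmic deubiquitinase, was at 84.9 and 55.7 CPM, a ratio of -0.61 (-0.80 to -0.42).

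Among the repressors, members and listed genes together, 8 of 9 were measured, 4 had an interval below 0 (Cry2, Ciart, Cipc and Bhlhe41) and 1 above (Per2). By the 1.5-fold rule 0 of them were called higher and 2 lower (Ciart and Bhlhe41), where it called 8.73% and 5.15% of all genes. Cipc, whose protein inhibits CLOCK, was at 27.2 and 19.0 CPM, a ratio of -0.51 (-0.85 to -0.19). Of 6 measured kinases and ubiquitin ligase parts, none was called, 2 had an interval below 0 and 1 above. The interval counts of both groups stand without a share of all genes. Csnk1d, a kinase of PER proteins, had a ratio of -0.32 (-0.56 to -0.08), Gsk3b one of -0.23 (-0.38 to -0.09), and Btrc, part of the ligase that marks PER for degradation, one of 0.14 (0.04 to 0.25). The kinase Csnk1e, at 0.02 (-0.26 to 0.30), and Fbxw11, a relative of Btrc, at 0.13 (-0.01 to 0.28), also had intervals that held 0. So did the repressor Bhlhe40, at -0.04 (-0.45 to 0.37), the rhythmic output gene Noct, at -0.16 (-0.47 to 0.16), and the cell cycle kinase Wee1, at 0.28 (-0.25 to 0.81). By sublayer, Usp2 had a ratio of -0.39 (-0.73 to -0.05) in deep-like nuclei and -0.71 (-1.07 to -0.35) in superficial-like nuclei.

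**Figure D4:**
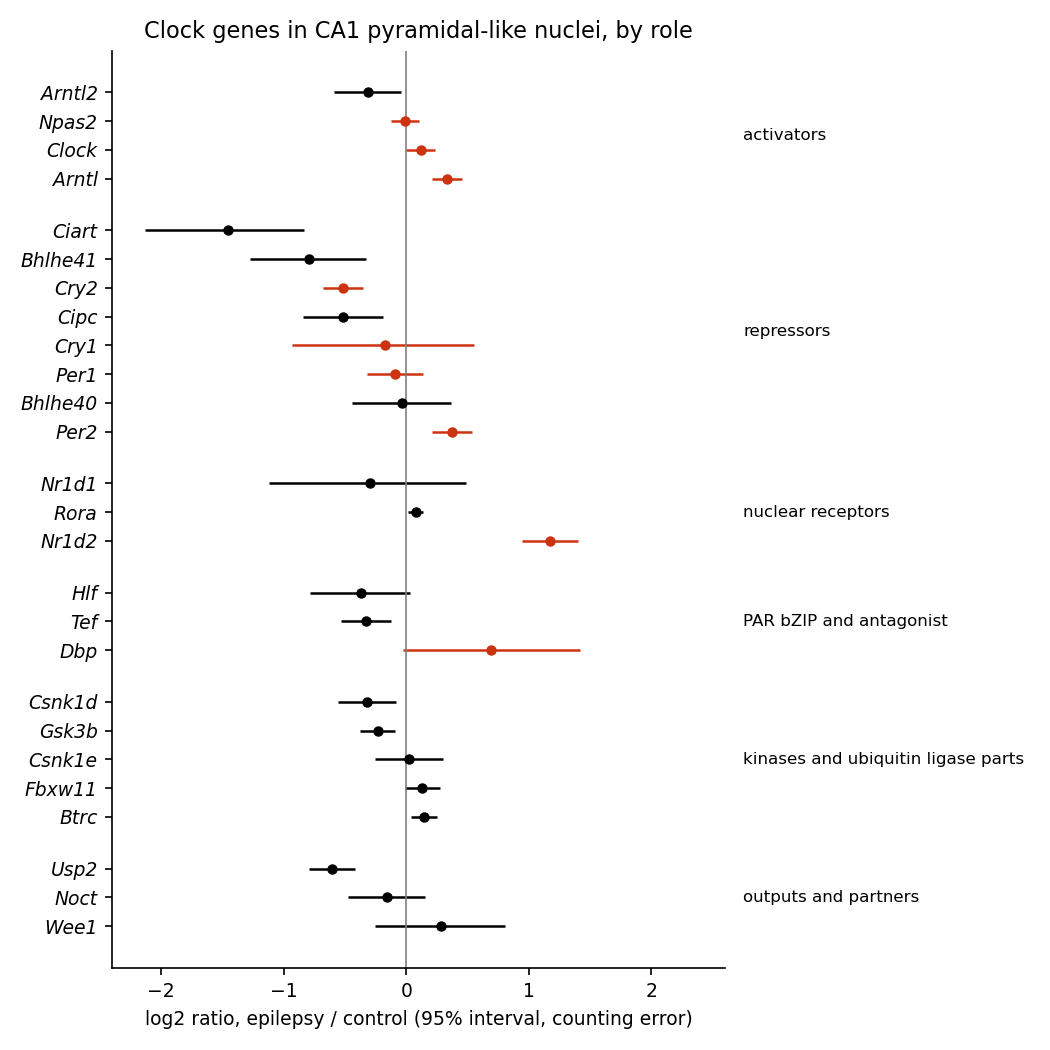
Log2 ratio of epilepsy to control in CA1 pyramidal-like nuclei for 26 listed clock genes with at least 50 UMIs, grouped by role; red points are the described members, black points the further listed genes, and bars exact 95% intervals for counting error. Nr1d2 is the point furthest right, followed by Dbp, whose interval holds 0, and Ciart, Bhlhe41 and Usp2 are the points furthest left.

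Since Per1 is also an activity-induced gene, it was set beside 12 immediate early genes. In pyramidal-like nuclei 11 of the 12 were measured, and all 11 had intervals below 0 in epilepsy, 10 of them past 1.5-fold, where 5.15% of all genes were called lower. The count by interval has no share of all genes beside it. Fos was at 17.9 CPM in control and 7.03 CPM in epilepsy, a ratio of -1.35 (-1.88 to -0.85). Npas4, a neuronal activity-dependent transcription factor, had a ratio of -1.43 (-1.82 to -1.05), and Arc one of -1.10 (-1.33 to -0.88). The smallest of the 11 was Nr4a1, at -0.39 (-0.54 to -0.24). Per1, at -0.09 (-0.32 to 0.14), had an interval that held 0 but overlapped that of Nr4a1, and Per2 was higher.

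In subcluster 5, the one highest in these genes, Per1 had its highest pyramidal level, 119 CPM in control and 99.7 CPM in epilepsy, from 136 and 78 UMIs. Its ratio there was -0.26 (-0.68 to 0.15), while Per2 was at 89.4 and 142 CPM with a ratio of 0.67 (0.27 to 1.07). In the same nuclei Fos had a ratio of -1.34 (-2.13 to -0.61), Npas4 of -2.41 (-3.37 to -1.58) and Homer1 of -0.91 (-1.06 to -0.76). The Per1 interval there overlapped that of Fos but not those of Npas4 and Homer1. In superficial-like subcluster 1 the control level of Per1 was 22.5 CPM.

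**Figure D5:**
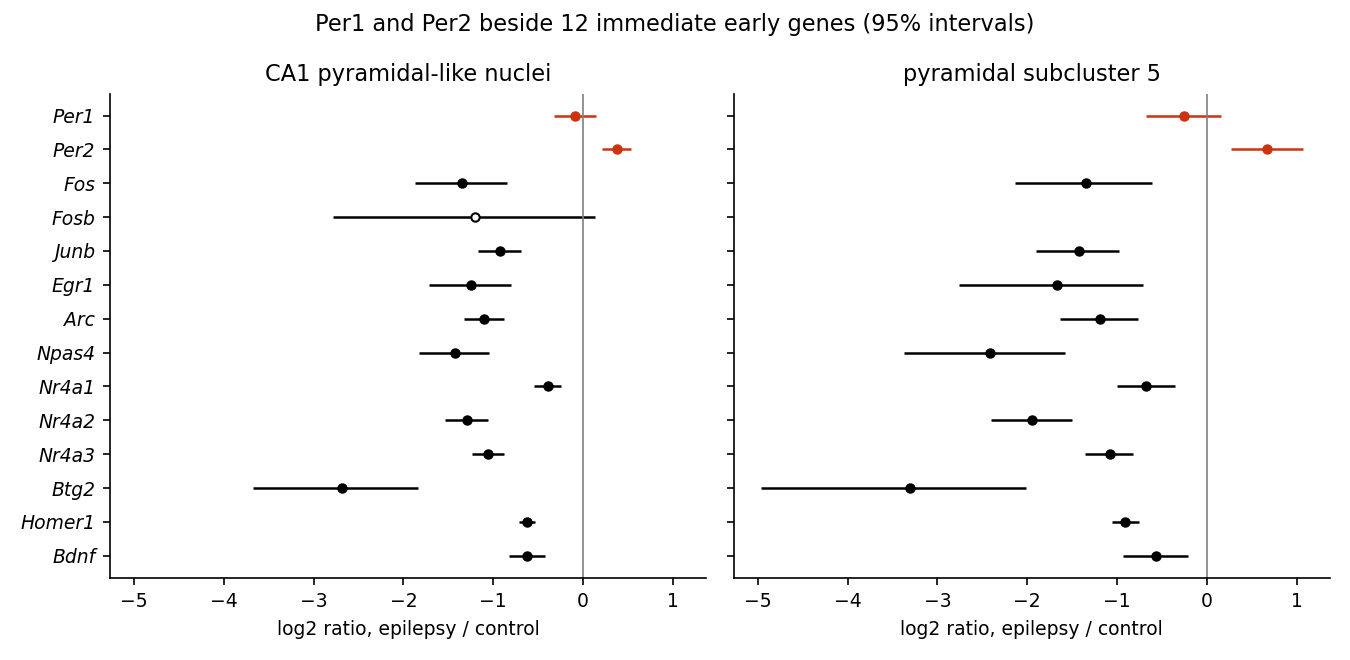
Log2 ratio of epilepsy to control for Per1 and Per2 (red) and 12 immediate early genes (black) in all CA1 pyramidal-like nuclei and in pyramidal subcluster 5; points are ratios, bars exact 95% intervals, and the open point has under 50 UMIs. Fosb in subcluster 5 had 0 epilepsy UMIs and is not drawn. The interval of Per1 holds 0, Per2 lies above 0, and all drawn immediate early genes have points to the left of both.

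For the 4 members with the deepest counts, the genes of most like pattern were found over 19 points, each a class in a library, among 4657 genes. Likeness is Pearson's r of log2(CPM + 10) among genes with at least 500 UMIs, given as a description: the points share libraries and depth, and several hold few nuclei. Npas2 was most like Dgkb (0.90), Gabrb1 (0.82) and Gpm6a (0.80). Clock was most like Hsp90b1 (0.94), Setd3 (0.93) and St7l (0.93). Arntl was most like Cpe (0.80), Npas2 itself (0.74) and Ppp1r12a (0.73). Cry2 was most like Serinc1 (0.81), Hnrnpl (0.77) and Zfp91 (0.76). Of these 12 neighbours, Npas2 was the only other clock gene.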

How the data were processed

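The deposited matrices hold raw counts (UMIs per gene and nucleus) that the authors made with Cell Ranger 2.2.0 on GRCm38/mm10, per the submitters' processing notes; the annotation, use of intronic reads and barcode selection are not given in the sources used here. Gene positions are those of GENCODE M21 (GRCm38), which held 30330 of the 30431 gene identifiers. Nuclei with at least 200 genes and under 5% mitochondrial UMIs were kept, and this removed 0. Scrublet marked 4 nuclei in each library, too few, so the 3% with the highest score were removed (110 control, 92 epilepsy). Nuclei were clustered with scanpy 1.11.5 and leidenalg 0.10.2 (2000 variable genes standardised within library, 30 components, 20 exact neighbours, resolution 1.0), and pyramidal nuclei again likewise. A cluster was named from marker lists (3 markers at 20 CPM and 2-fold, leading genes of no other class in excess), and sublayers from Ndst4 and Calb1. A rule was set after 1 earlier clustering had been seen and replaced. A cluster named committed precursor-like held as many precursor markers among its 10 leading genes. UMIs were summed per class and library, in groups of at least 30 nuclei per library for ratios. Counts gave exact Poisson intervals, and ratios exact conditional binomial intervals (scipy 1.17.1). On simulated counts of 11083 genes for the pyramidal comparison, 97% of 2-fold changes and 2.09% of unchanged genes passed 1.5-fold, and 95.6% of intervals held the true ratio. With 1 library per condition there was no spread between mice to simulate, so these are not error rates of the real comparison. In the real counts 13.9% of genes passed 1.5-fold in either direction. Members, lists and naming thresholds were chosen with earlier results of these data known. Named genes were the members, listed clock genes with at least 50 UMIs in pyramidal-like nuclei, and the 3 most like genes of the 4 deepest members; immediate early genes and genes below 50 UMIs are given as examples. The 14 alternatives set out for the processing, and 3 chosen after seeing the data, are given in the closing section. Of the further list, 2 genes enter the counts but are not reported here.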

Additional observations from a re-analysis of the deposited data

Results flagged for a closer look

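Npas2 had ratios of opposite direction under the same contrast in different groups of nuclei. The log2 ratio of epilepsy to control for interneuron-like nuclei was 0.86 (0.19 to 1.53). Deep-like nuclei gave 0.62 (0.41 to 0.82), and superficial-like nuclei -0.47 (-0.69 to -0.26). The intervals cover counting error in 1 library per condition. The difference between the groups was not tested, since no replicate libraries exist to test it with.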

How the results depend on the processing

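No paired analysis was possible because each condition is 1 library, and for the same reason no library could be left out. Of 556 recomputed gene ratios over 49 results, 548 stayed within their counting interval, 7 moved beyond it and 1 reversed: Npas2 in oligodendrocyte-like nuclei, from -0.60 to 0.067 with at least 500 detected genes. Among the 28 ratios whose interval lay beyond 0, none of the 321 recomputed values reversed. Npas2 ran from 0.20 (median marker score split) to 0.81 in deep-like and from -0.59 to -0.27 in superficial-like nuclei, and Nr1d2 from 1.11 to 1.24 in pyramidal-like nuclei. Per1 in deep-like nuclei went from 0.01 to 0.46 with nuclei thinned to 1000 UMIs. Counts of called members moved more (the cause was not tested). In pyramidal-like nuclei the count of 2 became 1 at 2-fold, with at least 200 UMIs, with thinning and, added after seeing the data, in nuclei of 2000 to 5000 UMIs. In deep-like nuclei 3 became 1, with Npas2 and Per2 lost, at 2-fold, at resolution 0.5, with at least 500 genes, with clock genes left out of clustering, with doublets kept and with the median split. In superficial-like nuclei 1 became 2 at resolution 0.5, with at least 20 UMIs, with at least 500 genes, with clock genes left out, with doublets kept, with thinning, with the median split and in the added 2000 to 5000 UMI range. In interneuron-like nuclei 2 became 1 at 2-fold and 0 with at least 200 UMIs or thinning, which left 0 members measured, and 3 with at least 20 UMIs. In oligodendrocyte-like nuclei 3 became 1 at 2-fold, with at least 500 genes and with doublets kept, and 0 with at least 200 UMIs or thinning, which again left 0 measured, and 4 with at least 20 UMIs. Trimmed-mean factors moved all ratios of a class by at most 0.034.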
